A study of Mus musculus with 36 samples.

Results

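Imipramine-treated mice with 1 targeted Brd1 allele were compared with vehicle-treated wild type mice, using RNA from the anterior cingulate cortex (aCC). The comparison rested on 17 of the 36 aCC libraries of the series, 9 labelled Brd1+/- IMN and 8 labelled WT vehicle, and the libraries were taken by these group labels, all of each group. The WT mice were not untreated, since they had received saline injections. All mice of the series were female and 8 to 11 weeks old, the labels give the strain of every mouse, WT included, as C57BL/6NTac-Brd1, and the WT mice were littermates of the mutants. Brd1+/- mice, all of a single mouse line, carried a deletion made in 1 copy of Brd1 (the strain is C57BL/6NTac-Brd1tm1.2Arte/AborgMmucd in the study's methods) and an intact second copy. IMN was imipramine at 10 mg/kg, a tricyclic antidepressant, injected on consecutive days. All mice, vehicle mice included, were also put through behavioral tests (tail suspension, open field and forced swim) before their brains were taken. Each library came from a tissue punch of 1 mouse, so a punch holds all cell types of the cortex and any white matter beneath it. The comparison asks what still differs from vehicle-treated wild type after the drug. Genotype and drug both differ between the groups, so their parts in any single difference cannot be told apart within it.

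BRD1 is a bromodomain scaffold of the BRPF family. It holds the acetyltransferases KAT6A, KAT6B and KAT7 on chromatin, where they acetylate histone H3. Imipramine blocks the reuptake of noradrenaline and serotonin and binds several receptors. In cortical neurons, synaptic activity switches on immediate-early genes through CREB and SRF within minutes, and these encode transcription factors (Fos, Egr1, Npas4) and synaptic effectors (Arc, Nptx2, Homer1) whose transcripts follow recent firing.

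The targeted gene was the clearest difference. Brd1 (ENSMUSG00000022387, chr15:88687034-88734233 on the minus strand, GRCm38) is given here in TPM, a measure of transcript abundance that is corrected for transcript length and scaled to the same total in every library. The WT vehicle libraries held 23.9, 22.6, 26.0, 28.3, 28.2, 23.9, 31.9 and 26.1 TPM. The Brd1+/- IMN libraries held 18.5, 13.5, 14.8, 15.3, 19.4, 19, 17.3, 18.2 and 15.6 TPM. Every treated mutant lay below every WT library, and the groups did not overlap. The mean was 26.4 ± 3.03 (SD, n = 8) in WT vehicle and 16.8 ± 2.1 (SD, n = 9) in Brd1+/- IMN, which is 63.6% of the WT level. Brd1 fell by 0.63 on the log2(TPM + 0.5) scale (SE 0.0837, limma adjusted p = 0.0139), and an exact two-sided permutation test over all 24310 arrangements gave p = 4.11e-05, the smallest it can give. The adjusted p was 0.0557 without WT vehicle replicate 4 and 0.0572 without WT vehicle replicate 5, and with any 1 of the 17 libraries removed it lay between 0.0134 and 0.0572. Over the other processing settings it ran from 0.003 to 0.362, the highest when same-numbered libraries were treated as pairs. Vehicle-treated mutants held 16.8 ± 2.72 TPM (n = 9), a mean equal to that of treated mutants, and WT mice given imipramine held 23.3 ± 3.43 (n = 10).

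**Figure D1:**
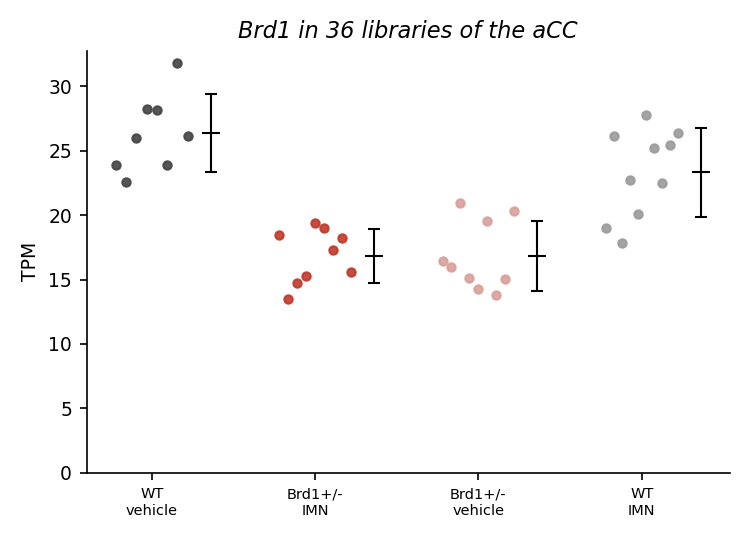
Brd1 in TPM (vertical axis, from 0) in each of the 36 aCC libraries by group. Points are libraries, and the bars give the mean and SD. All 9 Brd1+/- IMN libraries (13.5 to 19.4 TPM) sit below all 8 WT vehicle libraries (22.6 to 31.9 TPM).

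Across the transcriptome, Brd1 was the only gene of 25572 tested with an adjusted p under 0.05 (0.00391% of genes, limma with Benjamini-Hochberg adjustment). At the nominal level of p under 0.01 there were 576 genes (2.25%), of which 219 were higher (0.856%) and 357 lower (1.4%) in Brd1+/- IMN. Without WT vehicle replicate 1 there were 937 such genes and 9 with an adjusted p under 0.05. When the mitochondrially encoded transcripts were taken out and the rest rescaled, the same level gave 317 higher and 269 lower genes, so the excess of lower genes depended on that scaling. In 12 genes (0.0469%) the groups did not overlap, 5 of them higher (0.0196%) and 7 lower (0.0274%) in treated mutants. The 7 lower genes were Brd1, Tnfrsf25, Fam129b, Klf10, Pmepa1, Cxxc5 and the predicted gene Gm6075. The 5 higher were Acer2, Sult1a1, Selenoo and the predicted genes Gm15777 and Gm17709. Klf10 and the predicted genes were named after their values were seen. Klf10, a zinc-finger factor known as a TGF-beta early response gene, held 30.7 ± 2.08 TPM in WT vehicle and 21.5 ± 4.80 in Brd1+/- IMN (log2 fold change -0.54, SE 0.127, adjusted p = 0.266).

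**Figure D2:**
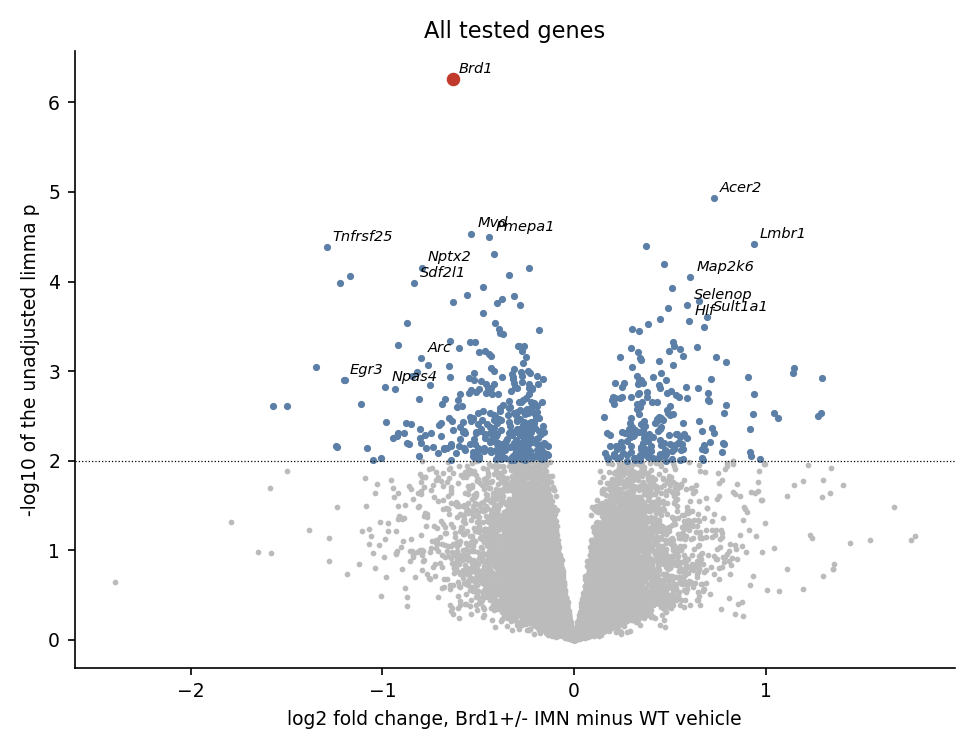
Each point is 1 of the 25572 tested genes, with the log2 fold change of Brd1+/- IMN over WT vehicle on the horizontal axis and -log10 of the unadjusted limma p on the vertical axis. The dotted line marks p = 0.01, the 576 genes above it are blue, and Brd1, in red, is the only gene with an adjusted p under 0.05.

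Activity-regulated transcription factors were lower on average in the treated mutants, although none passed the adjusted threshold. Of the 18 factors listed, all tested, 9 were lower at an unadjusted p under 0.05 and none was higher, where 8.51% of all genes passed, 5.08% lower and 3.43% higher. At p under 0.01 there were 4 (Egr3, Npas4, Jund and Egr1), all lower. The list's median log2 fold change was -0.35, and that of all genes was -0.0075. Members ranged from -1.20 to 0.36, with 15 negative and 3 positive.

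Egr3, a zinc-finger factor induced by synaptic activity, ran from 111 to 267 TPM in WT vehicle (median 228) and from 21.4 to 169 TPM in Brd1+/- IMN (median 86.4). The ranges overlapped, but all 9 treated mutants lay below the WT mean of 209 TPM and 5 lay below the lowest WT library. The log2 fold change was -1.20 (SE 0.314, adjusted p = 0.302). Npas4, a factor induced by calcium entry that builds inhibitory synapses, ran from 12.4 to 63.5 TPM (median 36.5) in WT vehicle and from 11.4 to 29.4 TPM (median 18.3) in Brd1+/- IMN. Its fold change was -0.98 (SE 0.264, adjusted p = 0.303), and only 2 treated mutants lay outside the WT range, because WT vehicle replicate 1 held the 12.4. Egr1 had means of 297 ± 85.1 and 193 ± 67.0 TPM (log2 fold change -0.64, adjusted p = 0.409). For the AP-1 subunit Jund they were 91.2 ± 9.34 and 76.1 ± 8.08 TPM (log2 fold change -0.26, adjusted p = 0.35). Fosb (-0.86), Egr4 (-0.73), Fosl2 (-0.41), Nr4a1 (-0.40) and Fos (-0.33) made up the other 5 with p under 0.05, at adjusted p from 0.493 to 0.568.

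The effectors of the same programme gave a like picture. Of 25 listed and tested, 8 were lower at p under 0.01 (1.4% of all genes) and 10 at p under 0.05 (5.08% of all genes), with none higher at either level. The median log2 fold change was -0.24, and it was -0.14 without WT vehicle replicate 5. These lists, like those that follow, were drawn up with earlier results of these data known. Nptx2, a secreted pentraxin that clusters AMPA receptors at synapses (chr5:144545902-144557478), held 66.0, 103, 98.1, 114, 104, 115, 105 and 102 TPM in the WT vehicle libraries. In the Brd1+/- IMN libraries it held 50.3, 61.3, 79.9, 46.8, 63.6, 30.9, 61.8, 63.6 and 74.1 TPM. WT vehicle replicate 1 was the single WT library inside the range of the treated mutants, and the other 7 WT libraries lay above all of them. The log2 fold change was -0.79 (SE 0.155, p = 7.01e-05, adjusted p = 0.162). The adjusted p was 0.046 without WT vehicle replicate 1 and ran from 0.0408 to 0.362 over the other processing settings.

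Arc, which drives endocytosis of AMPA receptors (chr15:74669083-74672570), ran from 148 to 343 TPM (median 284) in WT vehicle and from 116 to 269 TPM (median 133) in Brd1+/- IMN. All treated mutants were below the WT mean of 277 TPM, and 6 of 9 were below every WT library. The log2 fold change was -0.80 (SE 0.196, adjusted p = 0.276). The postsynaptic scaffold gene Homer1 ran from 131 to 173 TPM in WT vehicle and from 60.4 to 139 TPM in Brd1+/- IMN, with 8 of 9 treated mutants below the WT range. Its fold change was -0.48 (SE 0.127, adjusted p = 0.302), and that of the pseudokinase gene Trib1 was -0.54 (SE 0.145, adjusted p = 0.307). Inhba (-0.75), an activin subunit, Gadd45b (-0.49), Ier5 (-0.38) and the G-protein regulator Rgs2 (-0.31) were the others with p under 0.01. Bdnf, the neurotrophin of activity-dependent plasticity, had means of 25.7 ± 7.00 and 17.4 ± 5.97 TPM (log2 fold change -0.55, p = 0.0382, adjusted p = 0.561).

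CREB acts on activity-regulated promoters through the cAMP response element. Promoter sequence is shown for Npas4 and Homer1, whose windows held the core of that element. Windows of 250 bases before to 50 after each RefSeq gene start (GRCm38.p6) were looked for in Brd1 and in 8 activity-regulated genes named above, and were used for 4 of these 9 (Brd1, Npas4, Jund and Homer1). No window of Egr1, Egr3, Arc, Nptx2 or Trib1 was searched, so motifs in the promoters of these genes were not tested. In the 4 genes searched, the full element TGACGTCA, the AP-1 site TGACTCA and the serum response element were each absent from all 5 windows on either strand. They were found in 1.79%, 5.2% and 1.63% of all 32851 windows. The shorter core TGACG, looked for after the windows had been searched and also part of the full element, was found in 20.8% of all windows, with 2 copies for Npas4, 3 in 1 of the 2 Homer1 windows and none in the other Homer1 window or those of Jund and Brd1. The 250 bases before the start are printed below, 5′ to 3′ on the gene's strand, and capitals mark the core (TGACG, or CGTCA where it lies on the other strand). They lie at chr19:4989972-4990221 (minus strand) for Npas4 and at chr13:93303507-93303756 (plus strand) for Homer1.
Npas4: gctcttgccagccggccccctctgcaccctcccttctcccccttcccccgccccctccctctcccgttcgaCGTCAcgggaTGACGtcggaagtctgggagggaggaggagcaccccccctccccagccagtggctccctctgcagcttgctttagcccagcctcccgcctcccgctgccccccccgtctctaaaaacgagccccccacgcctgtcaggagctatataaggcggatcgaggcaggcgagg
Homer1: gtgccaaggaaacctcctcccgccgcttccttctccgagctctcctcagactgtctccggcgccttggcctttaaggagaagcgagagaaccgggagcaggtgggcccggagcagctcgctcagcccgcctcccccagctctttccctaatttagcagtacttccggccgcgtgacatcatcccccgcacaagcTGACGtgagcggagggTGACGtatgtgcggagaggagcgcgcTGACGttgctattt
The cores of Npas4 began 179 and 169 bases before the gene start, and those of Homer1 56, 40 and 14 bases before it. A match of these letters is a description of the window and not evidence of binding.

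For the activity lists, 2 libraries stood apart. WT vehicle replicate 1 had the lowest mean log2 level of both activity lists in its group, and it also had the highest oligodendrocyte marker level. It was lowest too in upper cortical layer markers (mean log2 level 4.57, group median 5.85) and highest in deep layer markers (4.83, group median 3.52). Brd1+/- IMN replicate 6 likewise had the lowest activity levels and the highest oligodendrocyte level of its group. Its upper layer level was the lowest (4.81, group median 5.65), but its deep layer level was not the highest. The part of the layers sampled was not tested. Without these 2 libraries, an alternative chosen after seeing the data, 13 of the 18 transcription factors and 12 of the 25 effectors were lower at p under 0.05. The list medians were then -0.44 and -0.28. Calls rose over all genes too, with 825 at p under 0.01 (310 higher and 515 lower), against 576 with all 17 libraries. With the oligodendrocyte marker level as a covariate over all 17 libraries the counts were 6 and 10, and the medians -0.30 and -0.24. In that fit 585 of all genes had p under 0.01. With any 1 library removed the counts ran from 6 to 13 and from 9 to 13, the highest of each without WT vehicle replicate 1. The count of all genes at p under 0.01 was also highest without that library, at 937. In these fits the list counts are at p under 0.05 and the counts of all genes at p under 0.01. Whether the lists rose by more than all genes did cannot be read from them. In bulk tissue, fewer cells of a type and less RNA per cell cannot be told apart.

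Without the same 2 libraries 12 genes had an adjusted p under 0.05, against 1 with all libraries. They were Brd1 (adjusted p = 0.0119), Nptx2 (-0.77, adjusted p = 0.0119), Mvd, Acer2, Zswim6, Snx24, Gm10762, Gadd45b, Egr4, Nab2, Sertad1 and Hes5. The last 5 were not among the genes named by rule, and all 5 were lower, by log2 fold changes from -0.43 for the Egr corepressor gene Nab2 to -0.88 for the Notch target Hes5. Of the 12 genes, 3 (Acer2, Snx24 and Gm10762) were higher in treated mutants.

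**Figure D3:**
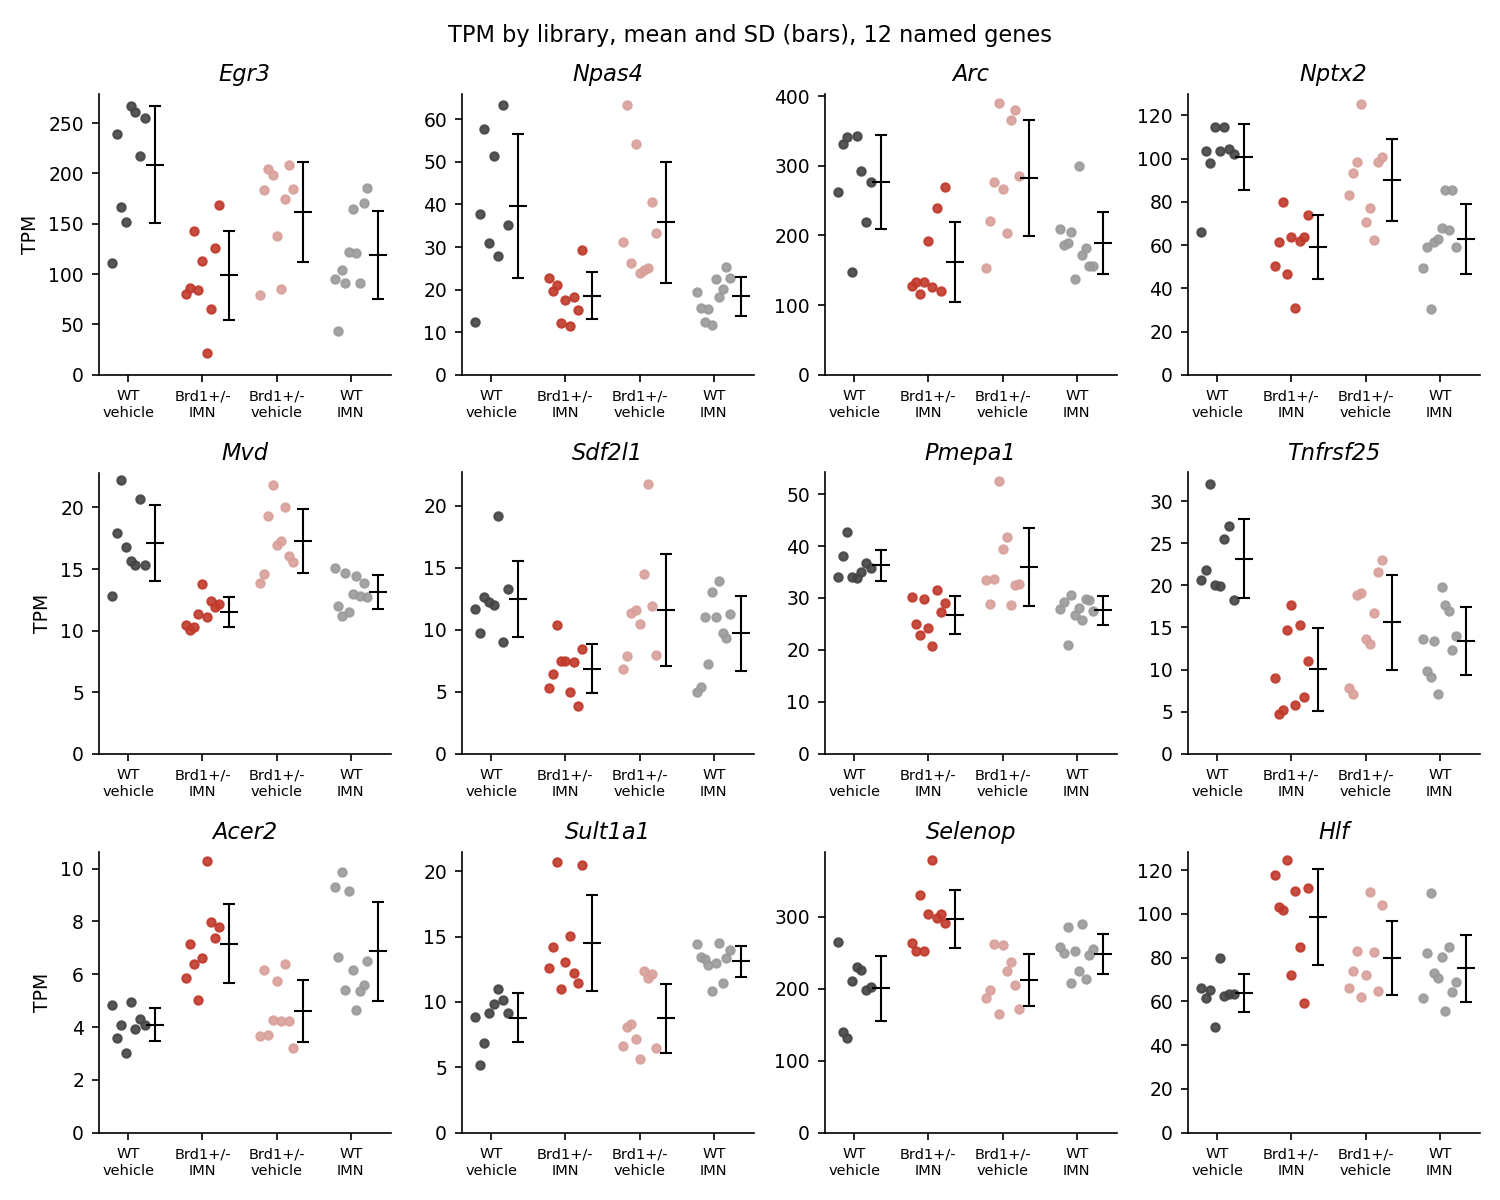
TPM (vertical axes, from 0) of 12 named genes in each library of the 4 groups. Points are libraries and bars the mean and SD. For Egr3, Npas4, Arc and Nptx2 most Brd1+/- IMN libraries lie under the WT vehicle mean, and for Acer2, Sult1a1 and Selenop all lie above it.

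Pmepa1, a membrane protein induced by TGF-beta that sequesters Smad proteins and so dampens the pathway (chr2:173224458-173276533), did not overlap between the groups. It ran from 33.8 to 42.7 TPM (median 35.4) in WT vehicle and from 20.7 to 31.5 TPM (median 27.3) in Brd1+/- IMN. The log2 fold change was -0.44 (SE 0.0807, p = 3.2e-05, adjusted p = 0.151). Of the 17 genes listed for neurotrophins, TGF-beta and its feedback, 3 were lower at p under 0.01 (1.4% of all genes) and none higher (0.856% of all genes). The list median was -0.16, with -0.05 when the oligodendrocyte marker level was a covariate and -0.10 without Brd1+/- IMN replicate 6. The other 2 were also Smad antagonists, Skil (30.8 ± 3.48 and 26.0 ± 2.64 TPM, log2 fold change -0.24, adjusted p = 0.4) and Smad7 (9.49 ± 1.06 and 7.96 ± 0.814 TPM, log2 fold change -0.24, adjusted p = 0.418). The receptor genes went in opposite directions at p under 0.05, with Tgfbr1 at -0.22 and Tgfbr2 at 0.42.

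Genes of sterol synthesis and uptake had mostly negative fold changes. Of 25 genes, 5 were lower at p under 0.01 (1.4% of all genes) and 6 at p under 0.05 (5.08% of all genes), with none higher, and the list median was -0.14, with 20 negative and 5 positive members. Mvd, the mevalonate diphosphate decarboxylase (chr8:122433601-122443422), ran from 12.8 to 22.2 TPM (median 16.2) in WT vehicle and from 10.1 to 13.8 TPM (median 11.3) in Brd1+/- IMN. In 8 of 9 treated mutants it lay below every WT library, and the other lay above WT vehicle replicate 1 alone. The log2 fold change was -0.54 (SE 0.097, p = 2.91e-05, adjusted p = 0.151), and the adjusted p was 0.0404 without WT vehicle replicate 1 and 0.018 when all 36 libraries were fitted together. Msmo1, a sterol methyl oxidase, had means of 75.8 ± 7.60 and 62.4 ± 8.79 TPM (log2 fold change -0.28, adjusted p = 0.363). Idi1, the isopentenyl diphosphate isomerase (-0.31), Hmgcs1, the HMG-CoA synthase (-0.27), and the sterol reductase gene Tm7sf2 (-0.22) were the others at p under 0.01.

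In the list for the integrated stress and unfolded protein response, 5 of 16 genes were lower at p under 0.01 (1.4% of all genes) and none higher. The list median was -0.14, with -0.08 under quantile normalization and -0.22 among genes averaging at least 1 TPM. Sdf2l1, part of an endoplasmic reticulum chaperone complex, ran from 9.04 to 19.2 TPM (median 12.2) in WT vehicle and from 3.82 to 10.4 TPM (median 7.38) in Brd1+/- IMN. In 8 of 9 treated mutants it was below every WT library (log2 fold change -0.84, SE 0.169, adjusted p = 0.166). Creld2, another protein induced by unfolded proteins, had means of 18.9 ± 2.93 and 13.4 ± 2.75 TPM (log2 fold change -0.50, adjusted p = 0.266). The disulfide isomerase Pdia4 held 23.0 ± 3.05 and 17 ± 3.86 TPM (-0.45, adjusted p = 0.303). Manf, a secreted protein of the endoplasmic reticulum (-0.38), and Ddit3, the stress factor CHOP (-0.23), were also at p under 0.01. Among the other members, Asns (0.06), Trib3 (0.08), Chac1 (0.11) and Sesn2 (0.00) had fold changes nearer 0, all with p above 0.05. The whole list had 10 negative and 6 positive members. In the list of heat-shock and cold-inducible genes 1 of 16, the Hsp70 exchange factor Hsph1, was lower at p under 0.01 (158 ± 12.9 and 131 ± 15.9 TPM, log2 fold change -0.27, adjusted p = 0.302). At p under 0.05 that list had 2 lower members (5.08% of all genes) and none higher.

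Among genes with higher means, Acer2 had the smallest p. It encodes an alkaline ceramidase of the Golgi that frees sphingosine from ceramide (chr4:86874396-86934822). It ran from 3.00 to 4.95 TPM (median 4.09) in WT vehicle and from 5.02 to 10.3 TPM (median 7.14) in Brd1+/- IMN, without overlap. The log2 fold change was 0.73 (SE 0.122, p = 1.17e-05, adjusted p = 0.149), and the adjusted p ran from 0.036 to 0.362 over the other processing settings. Sult1a1, a phenol sulfotransferase, had means of 8.79 ± 1.88 and 14.5 ± 3.66 TPM (log2 fold change 0.69, SE 0.152, adjusted p = 0.219), and its groups also did not overlap. Ddit4, an inhibitor of mTORC1 induced by glucocorticoids, ran from 16.1 to 28.4 TPM (median 20.5) in WT vehicle and from 20.5 to 35.0 TPM (median 29.0) in Brd1+/- IMN (log2 fold change 0.41, SE 0.107, adjusted p = 0.302).

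Sult1a1 and Ddit4 belong to a list of 15 glucocorticoid-responsive genes, in which 2 were higher and 1 lower at p under 0.01 (0.856% and 1.4% of all genes). At p under 0.05 there were 4 higher and 1 lower (3.43% and 5.08% of all genes), and the median was 0.17. Without WT vehicle replicate 1 there were 8 in all at p under 0.05. Calls over all genes at p under 0.01 also rose in that fit, from 576 to 937. The others at p under 0.05 were Plin4, a lipid droplet coat gene (1.26 ± 0.443 and 2.43 ± 1.47 TPM, log2 fold change 0.64), and Tsc22d3, the transcription regulator GILZ (0.35). The lower member was the cell cycle inhibitor Cdkn1a (80.9 ± 21.8 and 50.9 ± 16.7 TPM, log2 fold change -0.68, adjusted p = 0.41). Of those with p above 0.05, Fkbp5 (0.17), Klf9 (0.09), Mt1 (0.09), Zbtb16 (0.01) and Mt2 (-0.04) were nearer 0, and Sgk1 (0.57) and Arrdc2 (0.63) were not. The whole list had 12 positive and 3 negative members.

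Of the other genes with higher means, Selenop, the plasma and brain carrier of selenium (chr15:3268547-3280508), ran from 132 to 265 TPM (median 207) in WT vehicle and from 252 to 378 TPM (median 298) in Brd1+/- IMN. All 9 treated mutants were above the WT mean of 201 TPM (log2 fold change 0.59, SE 0.126, adjusted p = 0.179). Selenoo, a mitochondrial selenoprotein that attaches AMP to other proteins (chr15:89089084-89100340), ran from 8.92 to 11.6 TPM and from 12 to 15.0 TPM, without overlap (log2 fold change 0.38, SE 0.0697, adjusted p = 0.151). Brd1 lies on the same chromosome, less than a megabase from Selenoo and Creld2.

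Other named genes with higher means were Lmbr1, a membrane protein gene (5.72 ± 2.04 and 10.9 ± 1.34 TPM, log2 fold change 0.93, adjusted p = 0.151), and Map2k6, the kinase that activates p38 (7.84 ± 1.31 and 12.3 ± 2.70 TPM, 0.60, adjusted p = 0.162). Galnt15, a glycosyltransferase (1.16 ± 0.333 and 2.1 ± 0.516 TPM, 0.65, adjusted p = 0.179), the metalloproteinase inhibitor Timp4 (8.81 ± 1.26 and 12.4 ± 1.46 TPM, 0.47, adjusted p = 0.162) and the sorting nexin Snx24 (0.51, adjusted p = 0.166) were also higher in all 9 treated mutants than the WT mean. Hlf, a clock-output transcription factor, had means of 63.8 ± 8.62 and 98.5 ± 21.9 TPM (log2 fold change 0.60, adjusted p = 0.222). In the list of 18 clock genes it was the only one higher at p under 0.01 (0.856% of all genes), and the list median was 0.01. Rorb, listed also as a marker of upper cortical layers, was lower (5.48 ± 1.17 and 4.02 ± 0.550 TPM, -0.39, adjusted p = 0.363). The remaining higher gene, Gm10762, is a predicted gene (0.49, adjusted p = 0.189).

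Among the lower named genes, Tnfrsf25, the death receptor 3 of the TNF receptor family (chr4:152115934-152120119), had the largest log2 fold change of the genes whose groups did not overlap. It ran from 18.2 to 32.0 TPM (median 21.3) in WT vehicle and from 4.68 to 17.7 TPM (median 9.03) in Brd1+/- IMN (log2 fold change -1.29, SE 0.24, adjusted p = 0.151). Vehicle-treated mutants (15.6 ± 5.67 TPM) and treated WT mice (13.4 ± 4.00 TPM) lay between. Fam129b was also without overlap, at 21.2 to 25.5 TPM and 11.0 to 19.6 TPM (log2 fold change -0.48, adjusted p = 0.166). Fxyd7, a regulator of the sodium pump, had means of 269 ± 32.7 and 201 ± 22.1 TPM (-0.42, adjusted p = 0.157). Tet3, an enzyme that oxidizes methylcytosine, had means of 20.1 ± 2.47 and 15.1 ± 1.89 TPM (-0.40, adjusted p = 0.179), and Cxxc5, a protein that binds unmethylated CpG, 72.0 ± 7.78 and 55.4 ± 6.63 TPM (-0.38, adjusted p = 0.179). Zswim6 (-0.63), the deubiquitinase Usp28 (-0.34), the nucleolar protein Rrp9 (-0.31), the tetraspanin Tspan31 (-0.28) and the sialyltransferase St6galnac6 (-0.24) had adjusted p from 0.162 to 0.179. Gm47283 (-1.17) is annotated on the Y chromosome with near-identical copies elsewhere, so its value in female mice is uncertain.

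The other lists had at most 1 member at p under 0.01 in either direction. Of all genes, 2.25% had p under 0.01 (0.856% higher and 1.4% lower). At p under 0.05 it was 8.51% (3.43% higher and 5.08% lower), and the counts below stand beside these shares. Of 33 tested receptors for monoamines, histamine and acetylcholine, none had p under 0.01, 1 was higher and 3 lower at p under 0.05 (Adra1a 0.29, Chrm4 -0.27, Adrb1 -0.25 and Hrh1 -0.88), and the median was -0.08. In the list for monoamine synthesis, transport and breakdown, 1 of 9 tested genes was lower at p under 0.01, the vesicular transporter Slc18a2 (3.08 ± 0.350 and 2.48 ± 0.290 TPM, log2 fold change -0.27, adjusted p = 0.42). Of the other 8 BRPF scaffold and acetyltransferase partner genes, none had p under 0.05, with log2 fold changes from -0.16 (Meaf6) to 0.14 (Brpf3). In the list of other writers, erasers and readers of histone acetylation, Hdac11, a deacetylase, was the only gene of 24 at p under 0.01 (110 ± 19.6 and 132 ± 5.58 TPM, log2 fold change 0.29, adjusted p = 0.38). At p under 0.05 that list had 4 members, with Hdac11 and Brd9 (0.18) higher and Hdac6 (-0.23) and Hdac7 (-0.31) lower. The lists for excitatory synapses (23 genes, median 0.02) and neuropeptides (15 genes, median -0.07) had no member at p under 0.01. That for cAMP signalling had 1 of 29 (Gnal, the olfactory-type G protein subunit, -0.26) and 4 at p under 0.05 (1 higher and 3 lower), and that for potassium channels 1 of 17 (Kcnip2, a Kv4 partner, -0.52). The interferon list (10 genes, median -0.12) had none at p under 0.01 and 2 lower at p under 0.05, Usp18 (-0.65) and Ifi27 (-0.34). The nuclear complex I list (36 genes, median 0.01) had none at p under 0.01 and 1 lower at p under 0.05, and the lysosome list had 1 of 19 (the cathepsin Ctsl, 0.24).

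A further 4 genes were named whatever their values. Slc25a35, a mitochondrial carrier, ran from 3.85 to 5.33 TPM (median 4.51) in WT vehicle and from 4.49 to 7.38 TPM (median 5.67) in Brd1+/- IMN. Its log2 fold change was 0.35 (SE 0.105, adjusted p = 0.369, exact permutation p = 0.00313). Drd2, the dopamine D2 receptor, stood at 0.650 ± 0.418 and 0.611 ± 0.323 TPM (log2 fold change -0.03, exact permutation p = 0.904), a level at which 5 of 9 treated mutants were below the WT mean. Kcnd2, the Kv4.2 potassium channel, held 31.6 ± 2.90 and 35.2 ± 4.16 TPM (0.15, exact permutation p = 0.0717). Slc6a3, the dopamine transporter, was listed at 0 in all 17 libraries but WT vehicle replicate 4 (0.0588 TPM) and was not tested.

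**Figure D4:**
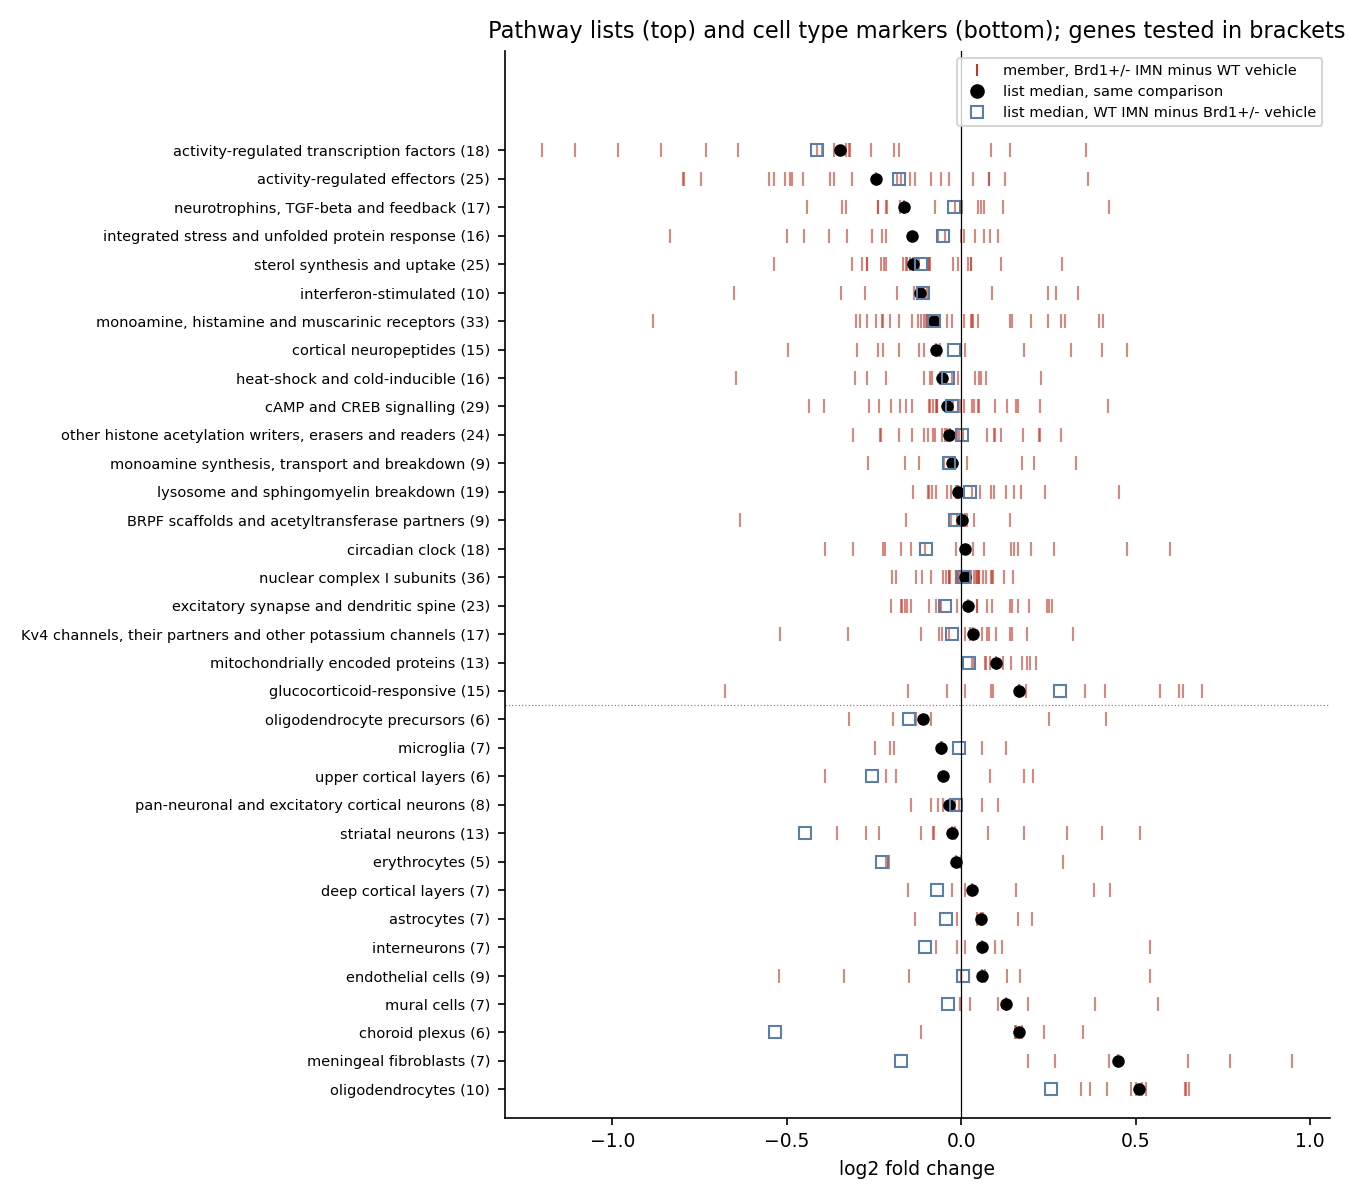
Log2 fold changes (horizontal axis) of each tested member of the 20 pathway lists (top) and 14 cell type marker lists (bottom), as red ticks, with the list median as a black dot and the median of the opposite pairing, WT IMN minus Brd1+/- vehicle, as an open square. Among the pathway lists the activity-regulated lists have the lowest medians in both pairings (-0.35 and -0.24, then -0.41 and -0.18), and the oligodendrocyte list has the highest median of the first pairing (0.51).

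A second pairing of the same design, WT IMN against Brd1+/- vehicle, used the other 19 libraries and shared none with the first. By construction the drug enters both pairings with the same sign and the genotype with opposite signs. A direction shared by both pairings does not assign a gene to either, since drug, genotype and their combination can all contribute. In the second pairing no gene had an adjusted p under 0.05 (0.0% of 25572, limma), 288 had p under 0.01 (1.13%, with 0.559% higher and 0.567% lower) and 1146 had p under 0.05 (4.48%). The 576 genes at p under 0.01 in the first pairing had the same direction in the second in 462 cases (80.2%), where 57.5% of all tested genes had it. At p under 0.05 in the second pairing, 80 of them had the same direction and 6 the opposite. Of all 25572 tested genes, 785 had the same direction and 361 the opposite at that level. Across all genes the log2 fold changes of the pairings had a Pearson correlation of 0.188 and a Spearman correlation of 0.197, given as a description since genes are not independent.

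Brd1 turned its direction, at 0.46 in the second pairing (p = 0.000151, adjusted p = 0.276). Hdac11 did too, at -0.41 (p = 0.00375), with group means of 134 TPM in Brd1+/- vehicle and 103 TPM in WT IMN. Of the 24 genes other than Brd1 named for the smallest p, 22 kept their direction, 9 of them at p under 0.05. The examples that follow come from all named genes, also those named only from the lists. Npas4 (-0.90, p = 0.000108), Egr1 (-0.68, p = 5.28e-05), Arc (-0.55, p = 0.00314), Nptx2 (-0.54, p = 0.00283), Mvd (-0.38, p = 0.000262), Pmepa1 (-0.36, p = 0.00171), Acer2 (0.52, p = 0.00281), Sult1a1 (0.60, p = 0.000171), Ddit4 (0.57, p = 4.2e-05) and Galnt15 (0.63, p = 0.000172) were examples with the direction of the first pairing. Egr3 (-0.47, p = 0.0676), Homer1 (-0.30, p = 0.0696) and Jund (-0.11, p = 0.232) kept their direction with p above 0.05 in the second pairing. Tnfrsf25 (-0.18, p = 0.431), Fxyd7 (-0.07, p = 0.393), Fam129b (-0.05, p = 0.459) and the chaperones Sdf2l1 (-0.23, p = 0.273) and Creld2 (-0.17, p = 0.223) were nearer 0 there. Hlf (-0.08, p = 0.5) was also nearer 0 there, and its sign was turned. The activity-regulated transcription factors had 10 of 18 lower and none higher at p under 0.05 in the second pairing (2.37% of all genes were lower), with a median of -0.41, and the effectors 9 of 25 with a median of -0.18. The glucocorticoid-responsive list had 5 of 15 higher (2.12% of all genes were higher) and a median of 0.28. The unfolded protein list had 1 of 16 lower and a median of -0.05.

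**Figure D5:**
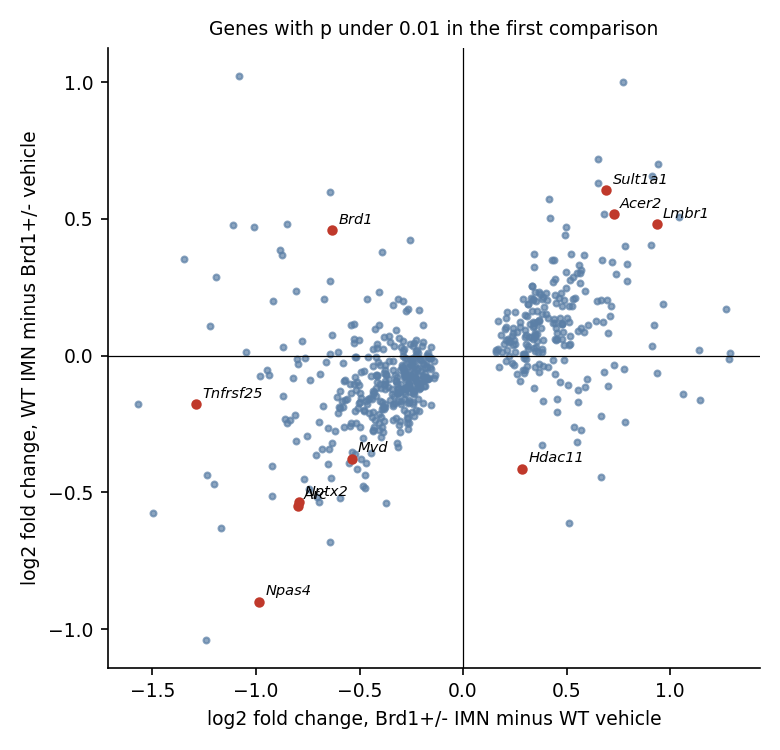
The 576 genes with p under 0.01 in the first pairing, with their log2 fold change there (horizontal axis) and in the second pairing, which shares no library with it (vertical axis). Of these genes 462 lie in the quadrants where both have the same sign, and Brd1 and Hdac11 lie in those where the signs differ.

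Each group difference can be set beside its parts, which share libraries with the comparison and carry no test of their own here. For Nptx2 the mean log2 level in vehicle-treated mutants was -0.18 from WT vehicle, imipramine in mutants added -0.62, and imipramine in WT mice gave -0.71. For Arc these values were 0.01, -0.81 and -0.53, for Mvd 0.02, -0.56 and -0.36, and for Acer2 0.14, 0.59 and 0.65. Tnfrsf25 had -0.63, -0.66 and -0.81, so vehicle-treated mutants and treated WT mice were both below WT vehicle. Hlf had 0.31, 0.29 and 0.22. For Brd1 they were -0.64, 0.01 and -0.18.

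Over the 17 libraries, all 8 listed markers of cortical neurons had a median of at least 1 TPM, and none of the 8 choroid plexus markers did. These medians do not describe single libraries and do not test which area was sampled. The summed choroid plexus level ran from 1.35 to 4.74 TPM in WT vehicle and from 1.31 to 41.8 TPM in Brd1+/- IMN (median 1.87 TPM), so at least 1 treated mutant library lay above the WT range for these markers. Oligodendrocyte markers had higher means in Brd1+/- IMN for 10 of 10 genes (median log2 fold change 0.51), with none at p under 0.05 (the median was 0.83 without WT vehicle replicate 1 and 0.24 without Brd1+/- IMN replicate 6), and their summed level ran from 192 to 2840 TPM in WT vehicle and from 230 to 3440 TPM in Brd1+/- IMN. Meningeal fibroblast markers were higher in 7 of 7 (median 0.45, none at p under 0.05), with sums of 16.6 to 96.5 and 15.5 to 192 TPM. Endothelial markers went both ways, with the transporter Slco1a4 at 0.54 (adjusted p = 0.409) and the transcription factor Sox18 at -0.52 (adjusted p = 0.302). Transcripts of the mitochondrial genome took 24.6% ± 1.61 of the TPM in WT vehicle and 26.0% ± 1.03 in Brd1+/- IMN (difference 1.47 percentage points, exact permutation p = 0.0361). All 13 mitochondrially encoded proteins had positive fold changes (median log2 fold change 0.10, and 0.0032 after quantile normalization). Of them 3 were higher at p under 0.05 (3.43% of all genes). The part of these shifts in the differences above was not tested beyond the covariate and the left-out libraries. In the second pairing, Brd1+/- vehicle replicate 6 held striatal transcripts (Drd2 at 34.7 TPM, where the group median was 0.846 TPM). That library was also highest of its group in choroid plexus markers (mean log2 level 5.1, group median -0.446). Without it 459 of the 576 genes had the same direction in both pairings, 10 transcription factors and 9 effectors of the activity lists were lower at p under 0.05, and 7 glucocorticoid-responsive genes were higher.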

How the data were processed

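RNA from right aCC punches, 1 library per mouse, was sequenced by the authors on a BGISEQ-500. Per the labels' processing notes, FastQC, Trimmomatic, HISAT2 2.1.0 and StringTie 1.3.4 were used with GRCm38. The deposited values are TPM (transcript abundance per library, scaled to a fixed total) for 52636 genes in 36 libraries, with column totals from 999727.1 to 999889.0. The table holds no read counts, so depth is unknown, counting intervals cannot be given and a count test was not used. Whether reads were counted by strand, and how reads with several matches were placed, is not given in the sources used here.

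Groups were read from the sample labels. The 25572 genes that reached 0.1 TPM in 8 or more libraries of the 36 were analysed on log2(TPM + 0.5), a scale that understates changes of low genes, with limma 3.58.1 in R 4.3.3 (moderated test with a mean-variance trend, two-sided), on the 17 libraries of the comparison. The p-values were adjusted by Benjamini-Hochberg over all tested genes, with a threshold of 0.05. Exact permutation tests (two-sided, 24310 arrangements) covered the tested genes of a fixed set of 5 and the mitochondrial share. The second pairing was fitted in the same way on its own 19 libraries. A count of list members at an unadjusted p is a description and no test of the list.

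The members and the 20 pathway and 14 marker lists were chosen with earlier results of these data known. Named genes were Brd1, Drd2, Slc25a35, Kcnd2 and Slc6a3, the 25 with the smallest p among genes averaging at least 1 TPM (24 beside Brd1), and in each list up to 4 genes with p under 0.01, or else its gene of smallest p. The fits were tested on simulated data. Alternatives were other pseudocounts, filters, scalings, library weights, a fit of all 36 libraries, an oligodendrocyte covariate, the replicate block and leaving out each library. Leaving out 2 libraries together and the search for TGACG were added after seeing the data. Promoter windows came from RefSeq.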

Additional observations from a re-analysis of the deposited data

Results flagged for a closer look

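In 149 sets of values (a named gene in 1 of the 2 groups), 15 had a highest or lowest library set apart from the rest by Dixon's criterion at the 95% level, where chance gives about 1 in 20. Of these, 5 were Brd1+/- IMN replicate 6 and 3 were WT vehicle replicate 1, the libraries with the highest oligodendrocyte marker levels of their groups. In Brd1+/- IMN replicate 6 these were low values of Egr3 (21.4 TPM, the other 8 libraries 65.1 to 169), Homer1 (60.4 TPM, the others 97.8 to 139), Kcnip2 (24.8 TPM, the others 46.7 to 74.3), Skil (20.4 TPM, the others 24.9 to 29.6) and the opioid peptide precursor gene Pdyn (5.26 TPM, the others 12.1 to 26.8). In WT vehicle replicate 1 they were low values of Nptx2 (66.0 TPM, the others 98.1 to 115), Cdkn1a (35.8 TPM, the others 70.2 to 107) and the neuronal kinase gene Camk2a (818 TPM, the others 1150 to 1370).

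Brd1+/- IMN replicate 7 was high for Chrm4 (50.5 TPM, the others 28.2 to 35.9) and Hsph1 (169 TPM, the others 116 to 137). WT vehicle replicate 2 was low for Hsph1 (131 TPM, the others 156 to 178). WT vehicle replicate 7 was high for Map2k6 (10.8 TPM, the others 6.80 to 8.28). Brd1+/- IMN replicate 3 was high for the GABA synthesis gene Gad2 (83.6 TPM, the others 52.7 to 62.0), and Brd1+/- IMN replicate 4 low for the mural cell receptor gene Pdgfrb (3.99 TPM, the others 6.07 to 7.87). Slc6a3 was listed above 0 in WT vehicle replicate 4 (0.0588 TPM) and at 0 in the other libraries of that group.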

How the results depend on the processing

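The count of genes with an adjusted p under 0.05 was 1 (Brd1) under both other pseudocounts, both filters, all 3 other scalings and the oligodendrocyte covariate. It was 11 when all 36 libraries were fitted together, 3 with library weights (Brd1, Acer2 and Nptx2), 12 without the 2 libraries highest in oligodendrocyte markers, and 0 with the replicate block, and it ran from 0 (without WT vehicle replicate 4 or 5) to 9 (without WT vehicle replicate 1) when 1 library was left out. In the fit of all 36 libraries the genes other than Brd1 were Mvd, Selenoo, Fam129b, Lmbr1, Tnfrsf25, Selenop, Prx, Gm37074, Acer2 and Fmnl1. Genes with p under 0.01 ran from 450 to 937 when 1 library was left out, with the highest count without WT vehicle replicate 1. In the second pairing the count with an adjusted p under 0.05 ran from 0 to 1. Scaling moved the direction of the genes at p under 0.01, with 284 higher and 336 lower under median-ratio scaling, 282 and 319 under quantile normalization and 317 and 269 without mitochondrially encoded genes. Drd2, near 0 throughout, changed sign with library weights (0.0719), without the 2 libraries (0.096) and when 1 library was left out (from -0.132 to 0.0955). The cause of these changes was not tested.

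The labels do not say that replicate numbers mark shared litters or days, and same-numbered libraries deviated together weakly or not at all (correlations from -0.122 to 0.149 in the first pairing and from -0.0671 to 0.194 in the second). In no case were same-numbered libraries each the closest to the other. With the replicate block, on 8 pairs, Brd1 had a log2 fold change of -0.62 and an adjusted p of 0.362, and 497 genes had p under 0.01. With 1 library left out, the exact permutation p of Brd1 was 8.74e-05 or 0.000155, the smallest those designs allow in each case, and an exact sign-flip test over the 8 pairs gave 0.00781. Depth is unknown, so the precision of low values such as those of Drd2 and Usp18 cannot be given beyond their spread over mice.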

Other observations

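Further members of the lists described above had the following values. The interferon-induced peptidase gene Usp18 had means of 0.759 ± 0.415 TPM in WT vehicle and 0.301 ± 0.292 TPM in Brd1+/- IMN (log2 fold change -0.65, p = 0.0157, adjusted p = 0.475). Gnas, the stimulatory G protein subunit gene, had means of 1030 ± 79.9 and 812 ± 217 TPM (-0.39, adjusted p = 0.454). The phosphodiesterase gene Pde4d had means of 27.4 ± 7.70 and 37.0 ± 9.61 TPM (0.42, adjusted p = 0.536), and Gria2, an AMPA receptor subunit gene, 158 ± 19.8 and 176 ± 15.2 TPM (0.16, adjusted p = 0.558). The complex I accessory subunit gene Ndufv3 had means of 138 ± 13.8 and 120 ± 13.7 TPM (-0.20, adjusted p = 0.493), and mt-Nd5, a complex I subunit of the mitochondrial genome, ran from 9520 to 12300 TPM and from 11400 to 13100 TPM (0.20, adjusted p = 0.49). Of the oligodendrocyte precursor markers, Pdgfra was at 0.42 (adjusted p = 0.553) and C1ql1 at -0.32 (adjusted p = 0.476).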
